A study of Mus musculus with 12 samples.

Results

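Within the femur LSD1WT preosteoclasts of this study, the 2 libraries of each condition were far apart. Of the 4 femur LSD1WT libraries, 2 held fewer than 1000 reads of Acp5 and Ctsk together per 1000000 counted reads and 2 held 1000 or more. The first kind is called Acp5/Ctsk-low here (low for short) and the second Acp5/Ctsk-high (high). On that scale, the 2 genes together gave 14102 in ligated replicate 1 and 15237 in unligated replicate 1, which are the high libraries. They gave 13.0 in ligated replicate 2 and 41.7 in unligated replicate 2, which are the low libraries. No library lay near the threshold of 1000, since the nearest values were 41.7 below it and 14102 above it. These 4 libraries belong to a series of 12.

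The series measured polyA RNA of preosteoclasts by bulk RNA-seq. Bone marrow of female mice was cultured for 2 days under M-CSF plus RANKL. Mice carried floxed LSD1 (Kdm1a), and in LSD1cKO mice a Cre recombinase driven by the LysM (Lyz2) promoter deleted it in myeloid cells, while LSD1WT mice were the controls. The 6 conditions of 2 libraries each were femur and mandible marrow of mice with a silk ligature around a molar for 7 days, and femur marrow of mice without a ligature, each from LSD1WT and LSD1cKO mice. An age of 2 months is stated with the data and 3 months in the study's methods. The labels name 9 mice, and the mouse of the high ligated library also gave a mandible LSD1WT library. The labels give the 2 libraries of a femur LSD1WT condition only a mouse number, and nothing in them sets replicate 1 apart from replicate 2.

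Osteoclasts form when macrophage colony-stimulating factor (M-CSF) keeps myeloid precursors alive and RANKL, acting on its receptor RANK, drives them to fuse and to express the enzymes and acid pumps that dissolve bone. The same precursors become macrophages when they receive M-CSF without an effective RANKL signal. The transcription factor NFATc1 directs the osteoclast programme, and factors such as IRF8 hold it back in macrophages.

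Total counts ran from 21375805 to 32526751 over the 12 libraries, 21375805 to 25022908 in the low and 26733293 to 32526751 in the high libraries. The low libraries had reads on 18556 to 18794 genes and the high libraries on 19973 to 20100, with mitochondrial transcripts at 1.66 to 2.07% and 2.95 to 4.27% of the counts. Kdm1a was at 61.2 to 71.3 CPM (counts per 1000000 counted reads, scaled with the TMM method) in the 6 LSD1WT libraries and at 15.6 to 24.3 CPM in the 6 LSD1cKO libraries, so the genotype labels of the 4 femur LSD1WT libraries held. Reads of Ddx3y, which lies on the Y chromosome, were absent from every library. A count of 0 can hide up to 3 counts, which is 0.0970 to 0.154 CPM in these 4 libraries, and such limits cover counting error only.

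Because the reads of 2 genes chose the libraries, the contrast of low with high libraries is described without any test. Differences are log2 CPM with a prior count of 2, low minus high, taken within the ligated pair and within the unligated pair. They are given with the mean ± SD over the 2 pairs, and where 2 values are given for a kind of library the ligated one comes first. A gene is called higher or lower when the difference was at least 2-fold in the same direction in both pairs. Of 15425 genes tested, 1631 (10.6%) were called higher and 2007 (13.0%) lower in the low libraries. A further 225 genes (1.46%) were at least 2-fold apart in opposite directions, 148 (0.959%) higher in the ligated and lower in the unligated low library and 77 (0.499%) the reverse. In bulk RNA a lower share of one kind of cell cannot be told apart from less of its RNA per cell.

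**Figure D1:**
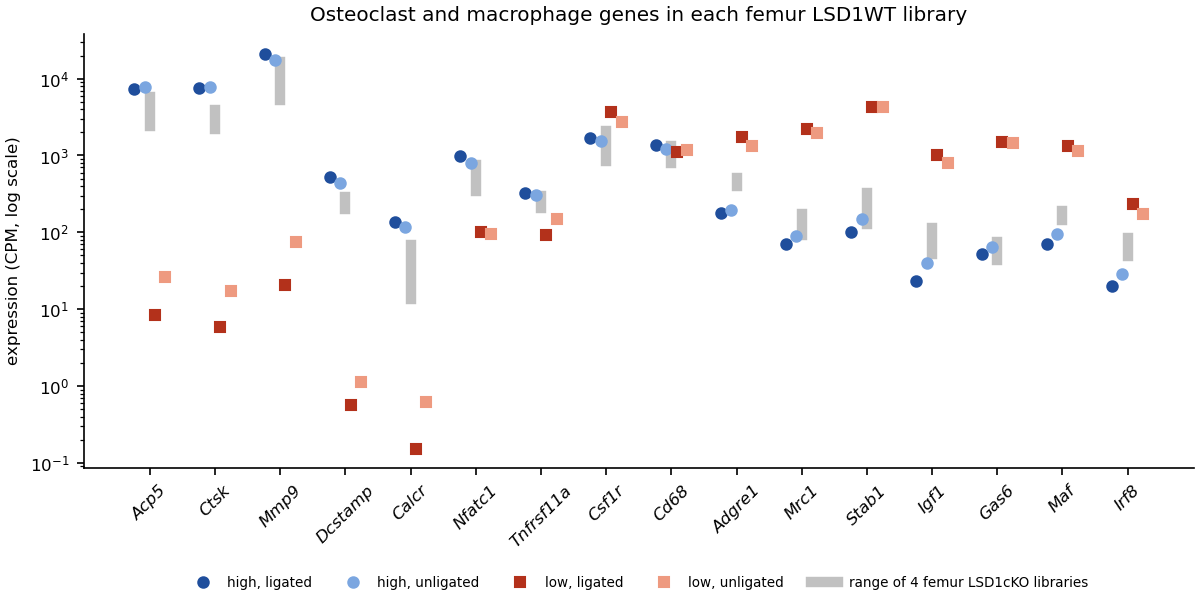
Expression in CPM on a log scale of 16 osteoclast and macrophage genes in the 4 femur LSD1WT libraries (points) and the range over the 4 femur LSD1cKO libraries (grey bars). From Acp5 to Nfatc1 both low libraries lie below both high libraries and below the LSD1cKO range, and from Adgre1 to Irf8 both low libraries lie above them, while Cd68 lies between 1102 and 1359 CPM in all 4.

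The label of these 2 kinds of culture, osteoclast-like and macrophage-like, was compared with markers. All 10 osteoclast markers (Acp5, Ctsk, Mmp9, Calcr, Ocstamp, Dcstamp, Atp6v0d2, Oscar, Nfatc1 and Itgb3) were called lower in the low libraries. Of 10 macrophage markers 8 were called higher (Mrc1, Stab1, Adgre1, C1qa, Mertk, Msr1, Cd163 and Marco), and 2, Csf1r and Cd68, were not called. The markers thus went with the label. Acp5 and Ctsk chose the libraries, and Mrc1 and Stab1 were given along with that choice, so these markers are no check on the label.

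Promoters of the 4 marker genes are printed to show which sequence stands before the genes that define the 2 kinds of culture here. They are the 250 bases before a start site in RefSeq on GRCm38.p6, a build other than the GRCm39 of the counts. Capitals mark a TCANGTGA match, the E-box that MITF binds, and TGANTCA (AP-1) and GAGGAAGT (PU.1) were searched on both strands as well. Acp5 has 3 annotated start sites, and the window with the match is shown.
Acp5 (chr9:22130599-22130848, minus strand): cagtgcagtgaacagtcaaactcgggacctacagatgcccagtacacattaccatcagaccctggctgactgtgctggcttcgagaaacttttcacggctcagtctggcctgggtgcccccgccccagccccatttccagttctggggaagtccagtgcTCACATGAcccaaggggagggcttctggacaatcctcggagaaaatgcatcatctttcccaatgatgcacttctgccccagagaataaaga
Ctsk (chr3:95498960-95499209, plus strand): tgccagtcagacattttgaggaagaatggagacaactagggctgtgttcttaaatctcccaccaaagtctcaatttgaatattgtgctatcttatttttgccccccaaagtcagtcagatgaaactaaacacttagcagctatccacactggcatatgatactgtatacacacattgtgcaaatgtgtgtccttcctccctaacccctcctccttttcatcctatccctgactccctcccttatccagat
Mrc1 (chr2:14229164-14229413, plus strand): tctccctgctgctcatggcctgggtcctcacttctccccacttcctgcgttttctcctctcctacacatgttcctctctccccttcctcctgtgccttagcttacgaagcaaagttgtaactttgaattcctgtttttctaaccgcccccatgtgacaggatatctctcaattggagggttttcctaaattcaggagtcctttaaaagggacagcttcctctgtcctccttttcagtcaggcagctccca
Stab1 (chr14:31168642-31168891, minus strand): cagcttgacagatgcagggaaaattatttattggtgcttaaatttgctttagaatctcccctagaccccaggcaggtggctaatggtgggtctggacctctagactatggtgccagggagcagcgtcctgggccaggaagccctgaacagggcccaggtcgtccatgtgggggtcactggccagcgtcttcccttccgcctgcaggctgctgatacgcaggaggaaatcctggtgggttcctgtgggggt

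None of the 3 motifs was written in the windows of Ctsk, Mrc1 or Stab1. Over all 32851 promoter windows TGANTCA stood in 6.75%, and it stood in 7.12% of the windows of genes lower in the low libraries, 6.18% of those of genes higher in them and 4.88% of those of all genes tested. The motif GAGGAAGT stood in 2.44% of all windows, in 2.30% of the windows of lower genes and in 3.91% of those of higher genes. The shares for TCANGTGA were 3.45%, 3.31% and 3.02%. These are counts of letters in a fixed window and say nothing of binding.

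Genes of bone resorption were mostly lower in the low libraries. Of 20 genes on the list, all were tested, 18 were called lower in the low libraries, against 13.0% of all genes, and none was called higher. Their median difference was -3.93, beside 0 for all genes. Summed over the list, expression was 52368 and 47612 CPM in the high libraries and 2212 and 2688 CPM in the low ones, a 23.7-fold and 17.7-fold distance. These values include Acp5 and Ctsk, which chose the libraries. Without both, 16 of 18 were called lower, the median was -3.09, and the sums were 37535 and 32059.8 CPM against 2198 and 2645 CPM, a 17.1-fold and 12.1-fold distance. Ctsk (ENSMUSG00000028111), which encodes the collagen-degrading protease cathepsin K, was at 7599 and 7875 CPM in the high libraries and at 5.90 and 17.1 CPM in the low ones. Acp5 (ENSMUSG00000001348), the tartrate-resistant acid phosphatase used to stain osteoclasts, was at 7234 and 7677 CPM against 8.31 and 26.1 CPM. Both genes were used to choose the libraries, and their values describe that choice.

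The other resorption genes were not used in the choice, though they were measured in the same libraries. Mmp9, a gelatinase, was at 21239.8 and 17607 CPM in the high and at 20.4 and 74.4 CPM in the low libraries, a mean difference of -8.95 ± 1.51 (SD, 2 pairs). Car2, the carbonic anhydrase that supplies protons for acid secretion, was at 389.8 and 363 CPM against 0.513 and 0.787 CPM, and Calcr, the calcitonin receptor, at 135 and 118 CPM against 0.154 and 0.621 CPM. The ranges of both kinds of library were separate for each of these genes, and the unligated low library held more of each than the ligated one. Itgb3, the β3 subunit of the vitronectin receptor, was less far apart, at 368 and 277 CPM against 13.5 and 10.6 CPM. Plekhm1, a lysosome adaptor, and Ostm1, the partner of the chloride channel CLC-7, were not called, with mean differences of 0.17 ± 0.05 and -0.68 ± 0.07 (SD, 2 pairs).

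Of the genes for cell fusion, 5 of 11 tested were called lower in the low libraries, against 13.0% of all genes, and 1 higher, against 10.6%. Dcstamp, a membrane protein needed for fusion of precursors, was at 525 and 436 CPM in the high libraries and at 0.564 and 1.12 CPM in the low ones. Ocstamp, its close relative, was at 411 and 326 CPM against 0.257 and 1.41 CPM. Siglec15, a sialic acid receptor of osteoclasts, had 51.6 and 42.4 CPM against 0 and 0.331 CPM, so that it was at least 335-fold lower in the ligated low library by a floor of 3 counts in that library. Cd81, a tetraspanin, went the other way, at 19.4 and 20.9 CPM in the high libraries and 298 and 303 CPM in the low ones. The receptor pair Cd47 and Sirpa was not called, with mean differences of 0.53 ± 0.24 and 0.51 ± 0.38 (SD, 2 pairs).

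Of 22 transcription factor and RANK signalling genes tested, 9 were called lower, 2 higher and 11 neither, against 13.0% and 10.6% of all genes lower and higher, with a median of -0.91. Nfatc1, the factor that directs the osteoclast programme, was at 998 and 810.2 CPM in the high libraries and still at 102 and 94.2 CPM in the low ones. Tnfrsf11a, which encodes RANK, was at 321 and 303 CPM against 92.7 and 149.7 CPM. The receptor and NFATc1 transcripts were therefore measurable in the low libraries. Of the resorption genes, Calcr and Car2 were under 1 CPM there, while others such as Mmp9 and Itgb3 were above it. The resorption list without Acp5 and Ctsk still summed to 2198 and 2645 CPM in the low libraries. Jdp2, an AP-1 family factor, was at 1041 and 981 CPM against 16.4 and 23.0 CPM, and Fosl2, another, at 1221 and 1168 CPM against 95.6 and 54.5 CPM. Ppargc1b, a coactivator of mitochondrial genes, was at 97.7 and 85.0 CPM against 1.49 and 3.27 CPM. Spi1 and Mitf, which act in both lineages, were not called, with mean differences of -0.97 ± 0.03 and -0.77 ± 0.02 (SD, 2 pairs). Trem2 and Fcer1g, a receptor and an adaptor of the costimulatory ITAM pathway that macrophages share, were called higher, with Trem2 at 52.1 and 90.3 CPM in the high and 585 and 527 CPM in the low libraries.

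Repressors of osteoclast differentiation stood on the other side. Of 15 tested, 12 were called higher in the low libraries, against 10.6% of all genes, and 1 was called lower, with a median of 1.71. Irf8, a factor of monocytes that restrains NFATc1, was at 20.3 and 29.0 CPM in the high libraries and at 232 and 173 CPM in the low ones. Id1 and Id3, inhibitors of helix-loop-helix factors, had mean differences of 3.03 ± 1.53 and 2.56 ± 0.46 (SD, 2 pairs), and Id1 was higher in the unligated low library, at 50.0 CPM, than in the ligated one, at 12.5 CPM. The member called lower was Rcan1, a regulator of calcineurin and itself an NFAT target, at 102 and 95.0 CPM against 16.3 and 23.1 CPM.

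Receptors of resident macrophages were higher in the low libraries for most of the list. Of 20 tested, 14 were called higher, against 10.6% of all genes, and none lower, with a median of 2.58. Stab1 (ENSMUSG00000042286), a scavenger receptor, was at 102 and 150.3 CPM in the high libraries and at 4307 and 4237 CPM in the low ones. Mrc1 (ENSMUSG00000026712), the mannose receptor CD206, was at 69.7 and 88.6 CPM against 2208 and 1958 CPM. The low libraries differed little from each other for these receptors, and Cd163, the haemoglobin scavenger receptor, was low in all 4, at 0.550 and 0.496 CPM against 17.8 and 12.2 CPM. Adgre1, which encodes F4/80, was at 180.0 and 194 CPM in the high libraries and at 1717 and 1342 CPM in the low ones. Csf1r, the M-CSF receptor that both lineages use, was at 1668 and 1522 CPM against 3684 and 2765 CPM and missed 2-fold in the unligated pair.

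Secreted macrophage factors and complement genes gave 14 called higher, 1 lower and 2 opposite of 24 tested, against 10.6%, 13.0% and 1.46% of all genes. F13a1, a transglutaminase of the clotting pathway, was at 7.34 and 16.0 CPM in the high libraries and at 793 and 406 CPM in the low ones. Igf1, a growth factor, was at 23.3 and 39.8 CPM against 1016 and 808 CPM, and Pf4, a chemokine of platelets and macrophages, at 14.5 and 22.7 CPM against 883 and 433 CPM. For each of the 3 the ligated low library was the highest of the 4. C1qa, a subunit of complement C1q, was at 51.4 and 87.6 CPM against 868 and 562 CPM. The member called lower was the complement gene C3, at 68.9 and 67.8 CPM against 28.2 and 7.74 CPM. Lyz2, lysozyme M, whose promoter drives the Cre recombinase of the LSD1cKO mice, was at 3195 and 5629.7 CPM against 35330.1 and 13829 CPM.

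Macrophage transcription factors were called higher in 7 of 15 cases, against 10.6% of all genes, and lower in 1. Maf was at 69.6 and 95.3 CPM in the high libraries and at 1317 and 1134 CPM in the low ones, and Irf4 at 2.46 and 3.05 CPM against 25.1 and 11.4 CPM. Nr1h3, which encodes the sterol sensor LXRα, was the exception, at 14.7 and 24.9 CPM against 3.59 and 2.90 CPM. Monocyte markers gave 9 called higher and 2 lower of 19, against 10.6% and 13.0% of all genes. Fcgr3, a low-affinity Fc receptor, was at 49.3 and 102 CPM against 2329 and 899.7 CPM, Fcgr1, the high-affinity one, at 4.95 and 12.2 CPM against 136 and 139.6 CPM, and Cd14, a co-receptor for endotoxin, at 30.9 and 32.4 CPM against 251 and 204 CPM. The 2 called lower were the matrix proteoglycan gene Vcan, at 28.8 and 17.7 CPM against 3.85 and 2.90 CPM, and Ace, which was under 1 CPM in all 4 libraries.

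Of 20 pattern recognition genes tested, which encode receptors for microbial products and their partners, 14 were called higher in the low libraries, against 10.6% of all genes, 6 were not called and none was lower, with a median of 1.98. Ly86, a partner of the receptor RP105, was at 10.1 and 18.3 CPM in the high libraries and at 282 and 196 CPM in the low ones. Tlr7 and Tlr8, endosomal receptors for single-stranded RNA, had mean differences of 3.68 ± 0.74 and 3.48 ± 0.54 (SD, 2 pairs). Chemokine and cytokine genes were mixed, with 10 called higher and 4 lower of 21, against 10.6% and 13.0% of all genes. Ccl4 was at 1.62 and 2.10 CPM against 22.8 and 45.3 CPM, and Cxcl14 at 2.72 and 2.83 CPM against 22.3 and 84.3 CPM. Ccl9, a chemokine that osteoclast precursors secrete in quantity, was at 2507 and 2293 CPM in the high libraries and at 923 and 632 CPM in the low ones. Ccl9 made up most of the summed expression of this list, which was lower in the low libraries (1455 and 1172 CPM) than in the high ones (2668 and 2476 CPM), while the list's median difference was 1.65. Il1rn, the interleukin-1 receptor antagonist, was also lower, at 65.6 and 52.3 CPM against 5.64 and 4.43 CPM.

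Of 17 genes for MHC class II and dendritic cells, 1 was called higher and 3 lower, shares near the 10.6% and 13.0% of all genes, with a median of -0.85. H2-Aa, a class II chain, was at 110.2 and 101 CPM in the high libraries and at 66.0 and 26.3 CPM in the low ones. The integrin gene Itgax (CD11c) was at 22.7 and 17.3 CPM against 1.95 and 1.24 CPM, and Zbtb46, a factor of classical dendritic cells, at 6.60 and 6.53 CPM against 0.462 and 0.952 CPM. The gene called higher was Cd83, at 9.96 and 6.30 CPM against 147 and 47.0 CPM.

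**Figure D2:**
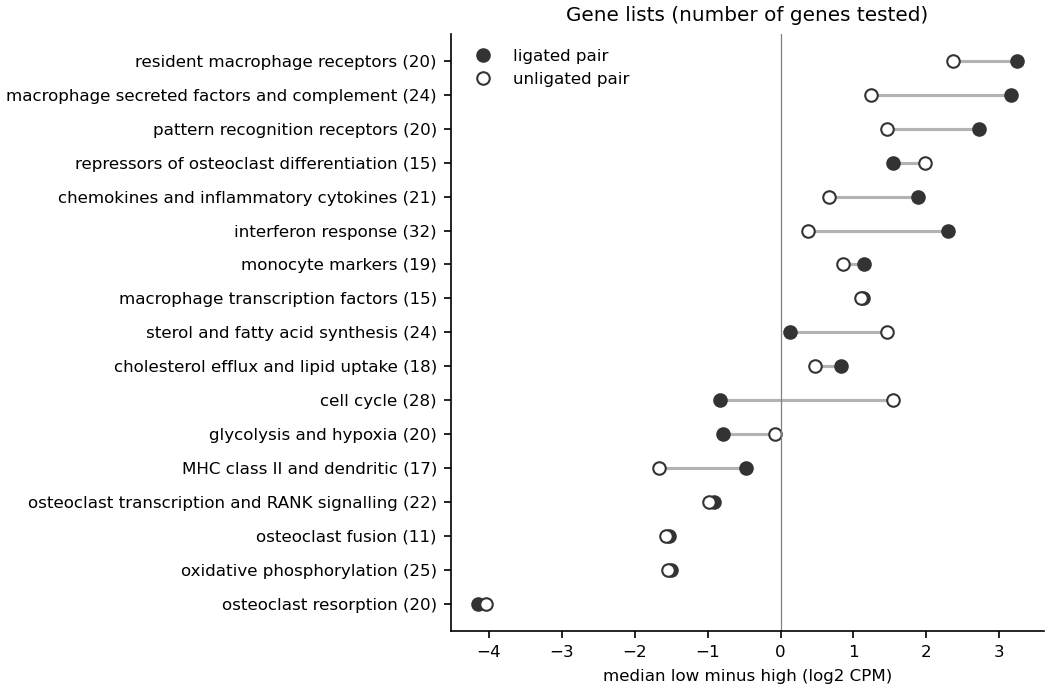
Median log2 difference between low and high libraries for 17 gene lists, with the ligated pair as filled and the unligated pair as open circles and the number of genes tested in brackets. Osteoclast resorption lies at the low end in both pairs and resident macrophage receptors at the high end, and cell cycle is the list whose circles lie on opposite sides of 0.

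Among metabolic genes, those of oxidative phosphorylation were lower in the low libraries. Of 25 tested, 22 were called lower, against 13.0% of all genes, and none higher, with a median of -1.58 (-1.50 in the ligated and -1.54 in the unligated pair). Cycs, cytochrome c, was at 209 and 207 CPM in the high libraries and at 20.3 and 43.9 CPM in the low ones, and Cyc1, a subunit of complex III, at 428 and 408 CPM against 46.5 and 69.7 CPM. Ndufv1, a subunit of complex I, had a mean difference of -2.19 ± 0.33 (SD, 2 pairs). Glycolysis and hypoxia genes gave 2 of 20 called lower, a share near the 13.0% of all genes, Pdk1 and Aldoa, with mean differences of -2.10 ± 0.36 and -1.14 ± 0.12 (SD, 2 pairs). Lipid uptake and efflux genes split, with 6 of 18 called higher and 3 lower, against 10.6% and 13.0% of all genes. Cd36, a fatty acid transporter, was at 50.4 and 79.5 CPM against 1604 and 1403 CPM, and Cyp27a1, a sterol hydroxylase, at 3.59 and 5.08 CPM against 99.7 and 28.1 CPM. The cholesterol exporter Abcg1 was lower, at 212 and 177 CPM against 37.1 and 51.6 CPM, and the lipoprotein receptor Vldlr was at 7.66 and 5.31 CPM against 0.205 and 0 CPM.

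Over all genes, those furthest apart in both pairs included several outside the lists. Slco2b1, an organic anion transporter, was at 0.259 and 0.535 CPM in the high libraries and at 165 and 107 CPM in the low ones, a mean difference of 8.20 ± 1.06 (SD, 2 pairs). Fcrls, an Fc receptor-like gene, was at 3.01 and 4.20 CPM against 523 and 353 CPM. The others in the 10 with the largest smaller difference were Lama3, Rasgrp3, Ang, Rnase4, Stab1, Hpgd, F13a1 and Gas6. Ang and Rnase4, neighbouring ribonuclease genes, had mean differences of 5.01 ± 0.12 and 5.51 ± 0.93 (SD, 2 pairs), and reads shared between them cannot be told apart here. Gas6, a ligand of the receptors AXL and MERTK that macrophages use to clear dying cells, was at 52.3 and 63.8 CPM against 1514 and 1451 CPM. On the other side were Akr1c18, Ctsk, Car2, Dcstamp, Rufy4, Ncald, Mst1r, Ephx2, Acp5 and Pate4. Akr1c18, a steroid dehydrogenase, was at 111 and 133 CPM in the high libraries and at 0 and 0.207 CPM in the low ones, at least 719-fold lower in the ligated low library. Ncald, a calcium-binding protein, was at 23.7 CPM in both high libraries and at 0 in both low ones, at least 154-fold and 191-fold lower by the floor of 3 counts in each low library. Pate4 was likewise at 0 in both low libraries and at 21.5 and 27.6 CPM in the high ones.

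**Figure D3:**
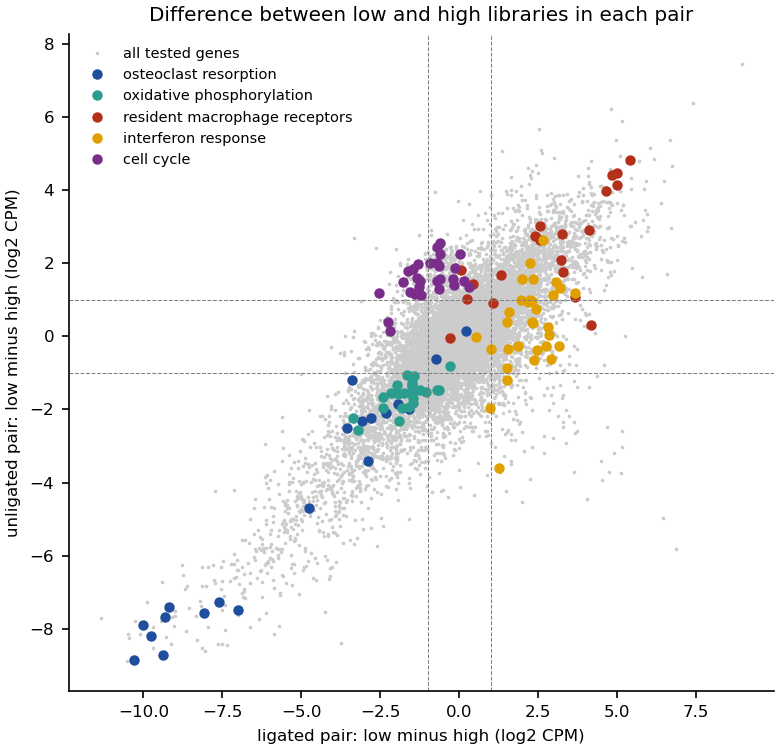
Difference in log2 CPM between low and high libraries in the ligated pair (x axis) and the unligated pair (y axis) for the 15425 genes tested, with 5 lists in colour and dashed lines at 2-fold. Most genes far from 0 lie along the diagonal, the cell cycle genes lie to the upper left and many interferon genes lie to the right near 0 on the y axis.

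The contrast was much alike in the 2 pairs but not the same. The differences of the 2 pairs had a Pearson correlation of 0.780 over 15425 genes, which are not independent replicates. At least 2-fold apart were 6053 genes in the ligated pair (39.2%) and 5437 in the unligated pair (35.2%). Between the 2 high libraries, which differ in ligature, 804 genes (5.21%) were 2-fold apart, and between the 2 low libraries 2576 (16.7%). The biological coefficient of variation, edgeR's estimate of the spread between libraries shared across genes, was 0.138 for the high libraries and 0.342 for the low ones taken as a pair, against 0.701 for the ligated and 0.652 for the unligated condition. The low libraries were therefore less alike than the high ones, and the lists below show part of this. Of the lists above, medians in the ligated and unligated pair were 3.16 and 1.25 for secreted macrophage factors and complement. They were 2.72 and 1.46 for pattern recognition and 1.88 and 0.67 for chemokines and cytokines. For bone resorption they were close, at -4.15 and -4.05.

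Cell cycle genes separated the 2 low libraries. None of 28 was called higher or lower in both pairs, and 11 were at least 2-fold apart in opposite directions, against 1.46% of all genes. The median was -0.82 in the ligated and 1.54 in the unligated pair, against 0.009 and 0 for all genes. In 27 of the 28 genes the unligated low library was the highest of the 4, and in 21 the ligated low library was the lowest. These ranks were not counted over all genes. Mki67, a marker of dividing cells, was at 194 and 106 CPM in the high libraries, at 118 CPM in the ligated low library and at 583 CPM in the unligated low library. The 5 genes with the largest opposite differences over the whole data were Uhrf1, Gpr162, Pole, Mcm2 and Clspn, of which all but Gpr162 act in DNA replication or in copying its marks. Mcm2, a subunit of the replicative helicase, was at 38.4 and 27.7 CPM in the high libraries, 12.4 CPM in the ligated low and 95.1 CPM in the unligated low library. Gpr162 went the other way, at 7.89 and 13.1 CPM in the high, 26.0 CPM in the ligated low and 3.64 CPM in the unligated low library.

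Sterol and fatty acid synthesis and the interferon response also differed between the low libraries. Of 24 sterol and fatty acid genes tested, 2 were called higher, a share near the 10.6% of all genes, and none lower, and the unligated low library was the highest of the 4 for all 24. Elovl6, a fatty acid elongase, was at 7.15 and 4.24 CPM in the high libraries and at 16.8 and 44.6 CPM in the low ones, and Scd1, a desaturase, at 3.65 and 3.86 CPM against 11.6 and 35.0 CPM. Interferon response genes were highest in the ligated low library in 30 of 32 cases. Their median was 2.30 in the ligated and 0.38 in the unligated pair, against 0.009 and 0 for all genes. For neither list was the rank counted over all genes. Of the 32 interferon genes, 10 were called higher, none lower and 2 opposite, against 10.6%, 13.0% and 1.46% of all genes. Xaf1, an interferon-inducible regulator of cell death, was at 5.17 and 11.2 CPM in the high libraries and at 32.7 and 69.9 CPM in the low ones, and Oasl2 at 14.5 and 28.4 CPM against 122 and 79.1 CPM. The chemokine gene Cxcl10 was at 7.18 and 13.5 CPM in the high libraries, 17.2 CPM in the ligated low and 1.04 CPM in the unligated low library.

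**Figure D4:**
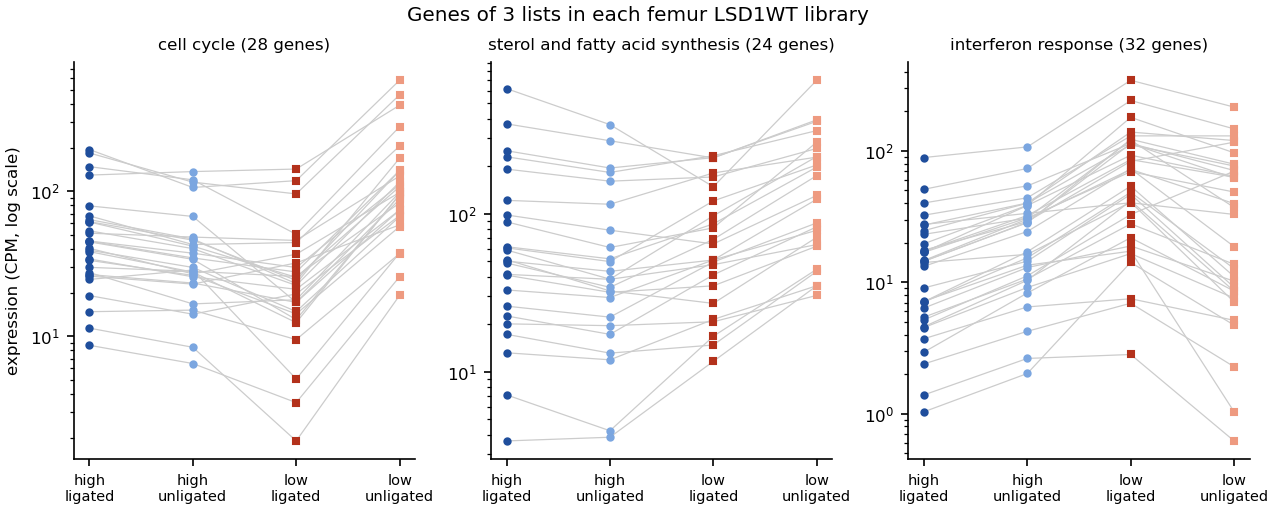
Expression in CPM on a log scale of each gene of 3 lists in the 4 femur LSD1WT libraries, with a line for each gene. The unligated low library is highest for 27 of 28 cell cycle genes and all 24 sterol and fatty acid genes, and the ligated low library is highest for 30 of 32 interferon genes. These ranks were not counted over all genes.

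Markers of other cells of the marrow were measured beside these lists. Of 16 neutrophil genes 2 were called higher in the low libraries (Mmp8 and Csf3r), a share near the 10.6% of all genes, and 3 opposite, against 1.46%. The sum over the 16 was 141 and 193 CPM in the high and 497 and 191 CPM in the low libraries. Of 12 B cell genes 5 were tested and 2 called higher, Ighm and Cd79b, too few to read against the 10.6% of all genes. Ighm, the IgM heavy chain, was at 11.8 and 15.8 CPM in the high and 216 and 109 CPM in the low libraries, while Cd79a, Ms4a1 and Pax5 had at most 6 counts in each of the high and at most 3 in each of the low libraries. The T cell and erythroid lists held 10 and 6 genes at 0 in both low libraries and 8 and 7 at 0 in both high ones. Cd3e was at 0 in all of them. The megakaryocyte sum of 907 and 439.7 CPM in the low libraries, against 23.6 and 31.3 CPM, was nearly all Pf4. Stromal and osteoblast genes summed to 14.2 and 23.7 CPM in the high and 35.4 and 5.51 CPM in the low libraries. Among tested genes of the remaining lists, 1 of 6 endothelial genes was called higher, and 1 of 3 T and NK, 2 of 3 mast and basophil, 1 of 4 eosinophil, 3 of 8 stromal and 4 of 11 stem and progenitor genes were called lower, lists too short to read against the 10.6% higher and 13.0% lower of all genes. A further 4 of the 8 stromal genes were opposite in the 2 pairs, against 1.46% of all genes. Of the 2 erythroid genes tested, 1 was called higher and 1 lower. The higher one, Epor, was at 3.44 and 1.62 CPM in the low libraries with 1 and 6 counts in the high ones. The lower one, Tfrc, was at 1325 and 1071 CPM in the high and 357 and 256 CPM in the low libraries. The part of other cells, of depth and of the share of mitochondrial transcripts in the contrast was not tested.

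The labelled contrast within these 4 libraries is the ligature, which asks whether a ligature in the mouth alters femur preosteoclasts. The test did not use the rule. Fitted over all 12 libraries with edgeR's quasi-likelihood method, ligated against unligated femur LSD1WT gave 0 genes with an adjusted p under 0.05 (0% in each direction), 70 higher (0.454%) and 48 lower (0.311%) at an unadjusted p under 0.05, and 2 genes by DESeq2. The smallest adjusted p was 0.774, for Dusp5, a phosphatase of ERK (edgeR, Benjamini-Hochberg). Dusp5 was at 13.4 and 3.78 CPM in the high libraries (ligated, unligated) and 21.2 and 3.81 CPM in the low ones. Egr1, an immediate early factor, was at 122 and 6.45 CPM in the high and 74.2 and 1.66 CPM in the low libraries, a log2 fold change of 4.59 (standard error 0.683, adjusted p = 0.859 by edgeR). Each was higher with the ligature in both kinds of culture. The fit carried the distance between low and high libraries in its spread, and its biological coefficient of variation was 0.419. With the high ligated library left out, so that a low library alone stood for the ligated condition, the test called 7 genes higher and 24 lower.

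The femur LSD1cKO libraries lay on average between the 2 kinds of femur LSD1WT library for 1339 of the 1631 genes called higher and 1597 of the 2007 called lower. Position was set as 0% at the high and 100% at the low library with the same ligature. The median position of the 4 LSD1cKO libraries was 36.5% over the higher and 23.2% over the lower genes. By library the medians were 29.7 to 42.5% for the higher and 12.3 to 27.1% for the lower genes, with unligated replicate 1 nearest to the high libraries in both. All 4 LSD1cKO libraries lay between the kinds for 15 of the 20 resorption genes, Acp5 and Ctsk, which chose the libraries, among them. The same was not counted over all genes. Mmp9 was at 5339.7 to 16257 CPM in them, and Ctsk at 2197 to 3939 CPM. Stab1, at 128 to 324 CPM, and Gas6, at 44.2 to 74.0 CPM, were near the high libraries. These positions carry no test, since the genes were chosen on the same contrast.

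On the interferon list the LSD1cKO libraries went past the low ones, with a median position of 145% over its 10 called genes. In 18 of 32 interferon genes all 4 LSD1cKO libraries were above all 4 LSD1WT libraries, and the same was not counted over all genes. Summed over the list, expression was 3271 to 5830 CPM in the femur LSD1cKO libraries, 2527 and 1589 CPM in the low and 542 and 857 CPM in the high LSD1WT libraries. Resident macrophage receptors were at 2483 to 2809 CPM in the LSD1cKO libraries, close to the 2111 and 2133 CPM of the high and far from the 12303 and 11752 CPM of the low libraries. The 2 lists thus placed the LSD1cKO libraries on different sides of the low libraries, as a description with no test.

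The 8 libraries that the rule did not use allow a test. In mandible preosteoclasts of ligated mice, LSD1cKO was compared with LSD1WT by edgeR's quasi-likelihood method in a fit of those 8 libraries. Of 15117 genes, 812 (5.37%) were higher and 128 (0.847%) lower in LSD1cKO at an adjusted p under 0.05. Of the 812, 392 (48.3%) belonged to the genes higher in low femur LSD1WT libraries, which make up 10.02% of all genes tested, and 74 (9.11%) to those lower in them, which make up 13.03%. From the other side, the 392 are 25.9% of the 1515 genes higher in the low libraries and the 74 are 3.76% of the 1970 lower in them. Of the 128 lower in LSD1cKO, 64 (50.0%, and 3.25% of the 1970) were among the genes lower in the low libraries and 7 (5.47%) among those higher, against the same 13.03% and 10.02% of all genes. The overlap itself was not tested. The mouse of the high ligated femur library also gave 1 of the 2 mandible LSD1WT libraries. By the titles, both mice of the mandible LSD1cKO libraries also gave the 2 ligated femur LSD1cKO libraries of the fit, which treated all libraries as independent.

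**Figure D5:**
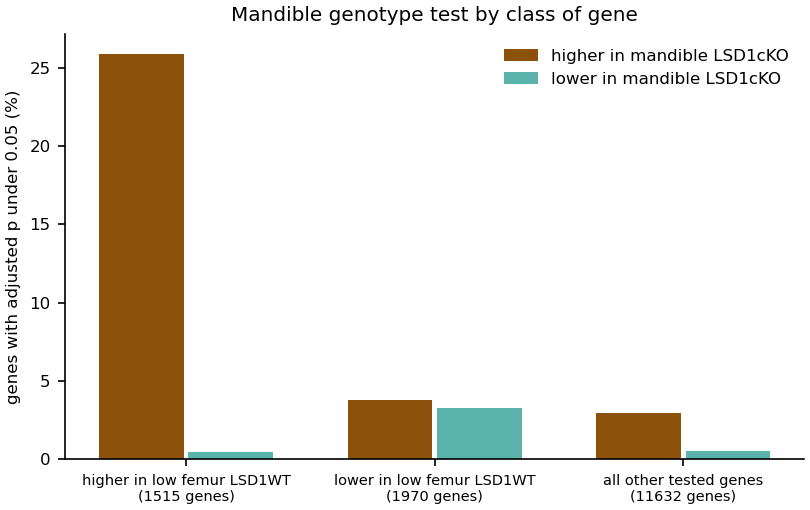
Share of genes (%) with an adjusted p under 0.05 in the mandible comparison of LSD1cKO with LSD1WT (edgeR, 8 libraries, 2 per condition), by class of gene in the femur LSD1WT contrast. The share higher in LSD1cKO is 25.9% of genes higher in the low libraries, 3.76% of genes lower in them and 2.97% of all other genes, and the share lower in LSD1cKO is 0.462%, 3.25% and 0.490%.

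By list, the mandible comparison called 16 of 20 pattern recognition genes, 15 of 32 interferon genes, 9 of 15 repressors of osteoclast differentiation, 10 of 18 monocyte markers and 5 of 20 resident macrophage receptors higher in LSD1cKO, beside 5.37% of all genes. Secreted macrophage factors and complement gave 2 higher and 2 lower of 24, beside 5.37% and 0.847% of all genes. None of the 20 resorption genes passed in either direction, too few genes to read against the 0.847% of all genes called lower. Their median log2 fold change was -0.71, beside 0.012 for all genes. Their sum was 36003 to 36158 CPM in mandible LSD1WT and 21175 to 21273 CPM in mandible LSD1cKO libraries. Cyp27a1 rose in LSD1cKO with a log2 fold change of 2.40 (standard error 0.248, adjusted p = 0.00247 by edgeR), and Fcgr3 with one of 1.52 (standard error 0.183, adjusted p = 0.00434 by edgeR). Akr1c18, the gene furthest apart on the lower side, fell by 1.28 (standard error 0.214, adjusted p = 0.0154 by edgeR). Mrc1 and Stab1 did not pass, at -0.28 (standard error 0.395, adjusted p = 0.777 by edgeR) and 0.67 (standard error 0.289, adjusted p = 0.254 by edgeR). Gas6, among the genes furthest apart on the higher side, fell by 0.88 (standard error 0.187, adjusted p = 0.0375 by edgeR). These calls rest on few libraries. Leaving out mandible LSD1WT replicate 1 left 104 higher and 3 lower, replicate 3 left 134 and 4, LSD1cKO replicate 1 left 478 and 15, and LSD1cKO replicate 2 left 186 and 5. Of the genes then higher in LSD1cKO and tested in both contrasts, 52.2 to 55.8% were among those higher in the low femur libraries, and of the 3 to 15 lower ones 0 to 33.3% were among those lower. In a fit of the 4 mandible libraries alone, 778 of 2761 higher genes (28.2%) and 930 of 2670 lower genes (34.8%) shared their class. In a fit of all 12 libraries, where the femur LSD1WT pairs enter the spread, 0 genes passed. Cyp27a1 passed with each library left out (adjusted p = 0.0162 to 0.0460), Fcgr3 with 1 of the 4 (0.0213 to 0.0812), and Akr1c18 (0.0920 to 0.153) and Gas6 (0.148 to 0.277) with none (edgeR). Chi-square per degree of freedom between the counts of mandible LSD1WT replicates 1 and 3 was 3.10, against 15.1 to 708 in the other 5 conditions. The biological coefficient of variation was 0.0246 for these 2 mandible LSD1WT libraries, against 0.138 for the 2 high femur libraries. The title of replicate 3 says mandible while its library name says femur. With 2 LSD1WT libraries this close, the p-values and calls of the mandible comparison may not reflect the spread between mice.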

How the data were processed

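Per the labels, polyA RNA of 12 preosteoclast libraries was sequenced. The authors deposited whole-number counts for 57010 Ensembl genes, without normalization. The submitters' processing notes name HISAT2 2.1.0, FastQC, featureCounts, edgeR and GRCm39, with no roles given, and whether counting used strand is not given in the sources used here.

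Counts were analysed in R 4.3.3 with edgeR 4.0.16. Genes passing filterByExpr were kept (15425), libraries were scaled by TMM, and log2 CPM used a prior count of 2. The rule split the 4 femur LSD1WT libraries at 1000 reads of Acp5 and Ctsk per 1000000, and ligature was handled by comparing within each pair. Ligature (12 libraries) and mandible genotype (8 libraries) were fitted with 1 coefficient per condition by glmQLFit and glmQLFTest, with Benjamini-Hochberg adjustment at 0.05. Both were run on simulated counts with known answers. The simulated libraries were independent and had no low and high kinds. That run checks the code and does not show how the tests behave in these data. By the titles, the 2 libraries of each condition came from mice with different numbers. The p-values measure the spread between these libraries, part of which may be technical. Fold bounds used a floor of 3 counts.

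The members, the 27 gene lists and the tests were chosen with earlier results of these data known. Named genes were drawn from several sets, and not every member of them is printed above. These sets held the markers Acp5, Ctsk, Mrc1 and Stab1 and the cell markers fixed with the design. From each list came the 3 members called with the largest differences and members on the other side of its median. Also taken were the 10 genes in each direction with the largest smaller pair difference and at least 10 CPM. The 5 largest opposite genes, the 5 smallest p-values for ligature, and Kdm1a, Xist and Ddx3y completed the sets. Ostm1, Tnfrsf11a, Spi1, Mitf, Lyz2, H2-Aa, Mki67, Cxcl10, Cd79a, Ms4a1, Pax5 and Cd3e were named after their values were seen. Of 471 list entries 406 were tested. Alternatives were the RLE and upper-quartile scalings, no filter, a mean of at least 10 counts, a prior count of 0.5, DESeq2 1.42.0, other sets of libraries in the fit, a replicate block and each library left out.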

Additional observations from a re-analysis of the deposited data

Results flagged for a closer look

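Lists and genes are given here whose difference between low and high libraries was opposite in the ligated and the unligated pair. With 1 pair for each ligature the difference between the pairs was not tested. The median of the cell cycle genes was -0.82 in the ligated pair and 1.54 in the unligated pair. The neutrophil genes had medians of 1.33 and -0.64, the megakaryocyte genes 0.60 and -1.16, and the stromal and osteoblast genes 0.70 and -3.50. Among single genes, the chromatin and replication gene Uhrf1 differed by -1.87 and 1.95, the helicase subunit Mcm2 by -1.62 and 1.78, the polymerase gene Pole by -1.63 and 2.10, the checkpoint adaptor Clspn by -1.49 and 1.95, and Gpr162, an orphan receptor, by 1.71 and -1.82. Uhrf1 was at 44.8 and 33.9 CPM in the high libraries, 12.2 CPM in the ligated low and 131 CPM in the unligated low library.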

How the results depend on the processing

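Counts of genes called apart kept within 1.5 times under both scalings, both filters and a prior count of 0.5, with 1460 to 1870 higher and 1825 to 2247 lower in the low libraries. A single pair gave 2439 to 2950 higher and 2998 to 3103 lower, since each needs 1 pair only. Upper-quartile scaling moved the median of all genes in the unligated pair to -0.13, and no list with a median of at least 1 in size, and no named gene called in both pairs, turned its direction under any alternative. Genes of opposite direction in the 2 pairs, such as Uhrf1 and Gpr162, take the direction of whichever pair is kept. Lists with a median of at least 1 in size numbered 7 higher and 5 lower, with 3 lower when no filter was used and 7 to 10 higher and 4 to 8 lower in a single pair. The position of the LSD1cKO libraries moved by less than their spread under each alternative (34.2 to 40.0% and 20.8 to 24.5%).

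For ligature, DESeq2 called 2 genes (Egr1 and Dusp5), no filter 1 (Egr1), and the 12 libraries with a replicate block 1 (Egr1, adjusted p = 0.0312 by edgeR). The other edgeR alternatives called 0, except that leaving out 1 library gave 0 to 7 higher and 0 to 24 lower. Replicate numbers did not pair the femur LSD1WT libraries by any label, and same-numbered libraries deviated together (r = 0.780), as the low and high kinds follow the number. With the block in the 4 libraries alone 0 genes passed, and Egr1 had an adjusted p of 0.0851 (edgeR), chosen after seeing the data.

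For the mandible genotype, DESeq2 called 275 lower, no filter 1634 higher and 488 lower, the 4 mandible libraries alone 2761 and 2673, and all 12 libraries 0 and 0. Leaving out 1 library gave 104 to 478 higher and 3 to 15 lower. No paired analysis was possible for it because the 2 conditions share only number 1. The cause of these moves was not tested. With 2 libraries per condition, depth limits genes under about 3 counts.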
